A study of Capra hircus with 3 samples.

Results

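miR-143 and miR-145 are a pair of microRNAs (miRNAs) that are best known from smooth muscle, and their tags were followed here through the hair cycle of goat skin. Skin of adult Shanbei White cashmere goats was sampled in anagen (the growth stage of the hair follicle), catagen (its regression) and telogen (its rest). For each stage the skin of 10 goats of both sexes was mixed before the RNA was taken, and sequenced as 1 small RNA library; no treatment was given, and whether the same goats were used at each stage was not stated. A tag is a distinct sequence of 18 nt or longer with its number of reads, and the 3 libraries held 15997828 (anagen), 18111912 (catagen) and 27016012 (telogen) clean reads. With 1 library per stage there was no replicate check: every interval and test covers counting error only, the reads carry no molecular identifiers, and a test compares the libraries, not the stages.

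Members were first sought as tags that share their first 18 nt with a tag that the study listed for the precursor of miR-143 or miR-145. This gave 203 tags of 4043974 distinct tags in the series, and 10924 of 61125752 reads. In the shortened copy of the list used here these 203 tags fell under 6 starts, of which none was the usual start of miR-143-3p or of miR-145-5p, the arms that hold most reads. Reads of the usual miR-143-3p start were therefore taken from the sequence that the listed miR-143 tags form when joined. The miR-145-5p start was found by its pairing with the listed miR-145-3p arm. Counted in this way the 4 arms held 1403 tags and 767934 reads, which was 1.26% of all clean reads, and 1475 tags and 769603 reads together with the listed starts.

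A miRNA precursor is a hairpin from which Dicer cuts a short duplex, and either strand (the 5p or the 3p arm) can be loaded into Argonaute, where bases 2 to 8, the seed, pair with target mRNAs. The miR-143 and miR-145 genes lie side by side and are known to be made as 1 primary transcript, so that their transcription is shared. Both are abundant in vascular and visceral smooth muscle, where they act on regulators of the contractile state and on the cytoskeleton, and skin holds smooth muscle in vessel walls and in the arrector pili. In the goat gene table (assembly ARS1.2) they are neighbours between CSNK1A1 and IL17B. The label could not be checked against smooth muscle markers, because mRNA was not measured, and in bulk skin fewer cells of a type and less RNA per cell cannot be told apart.

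The most read tag of each arm is shown because all counts below start from it; capitals mark the seed, and T stands for U as in the files.
miR-143-3p: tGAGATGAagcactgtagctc
miR-143-5p: gGTGCAGTgctgcatctct
miR-145-5p: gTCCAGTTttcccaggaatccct
miR-145-3p: aTTCCTGGaaatactgttctt
The 4 tags measured 21, 19, 23 and 21 nt, and no seed was shared with any of the other counted miRNA arms. Of 1851 groups of tags with at least 1000 reads and a most read tag of 20 to 24 nt, the miR-145-5p tag formed the most stable duplex with the joined miR-145-3p sequence (16 base pairs and -23.2 kcal/mol, against -20.8 kcal/mol for the next unrelated tag). The search alone is a weak proof of identity, since it placed the known partner first for 13 of 55 other miRNAs and within the first 5 for 34. The tag is also the miR-145-5p sequence that mammals share, which is background knowledge and not in the files used here.

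miR-143-3p, the guide arm of its precursor, was an abundant miRNA of the skin, ranking 4th, 7th and 6th among the 457 arms counted in anagen, catagen and telogen. The study's own table of the most read miRNAs places miR-143 lower in each stage, with let-7c listed above it and apart from let-7a. The ranks given here hold for a shorter list, since the listed tags used here leave out arms of some miRNAs. In that list let-7a and let-7c were counted as 1 arm. miR-143-3p held 197739, 134196 and 310096 reads. In TPM, here the reads per 1000000 clean reads of the library as the study defined it, this was 12360 (95% exact interval 12306 to 12415) in anagen, 7409 (7370 to 7449) in catagen and 11478 (11438 to 11519) in telogen. Anagen and telogen were thus close and catagen was the low library. The anagen level was 1.67-fold that of catagen, a log2 ratio of 0.74 (0.73 to 0.75), and the catagen to telogen log2 ratio was -0.63. Between anagen and telogen the log2 ratio was 0.11, and its sign turned with the processing: it was -0.20 when scaled to the reads of all miRNA arms and -0.10 with tags of 21 nt or longer. With clean reads as the scale all 3 pairs differed beyond counting error, and none passed 2-fold, so that miR-143-3p was called in no pair. With size factors from the median of ratios over the arms, in place of clean reads, the anagen to catagen log2 ratio was 1.05 and passed the call.

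miR-145-5p, the guide arm of the neighbouring precursor, was lower in anagen than in catagen, whereas miR-143-3p was higher in anagen than in catagen. Its reads numbered 10315 in the anagen library, against 43828 in catagen and 62505 in telogen. In TPM it stood at 644.8 (632.4 to 657.3) in anagen, 2420 (2397 to 2443) in catagen and 2314 (2296 to 2332) in telogen. Anagen was the low library, and catagen and telogen were within 1.05-fold of each other, without a direction that held under every scaling (log2 ratio 0.06, or -0.23 when scaled to the reads of all miRNA arms). miR-145-5p was lower in anagen than in catagen by 3.75-fold (log2 ratio -1.91, interval -1.94 to -1.88) and lower than in telogen by 3.59-fold (log2 ratio -1.84, interval -1.87 to -1.81), and both passed the call (over 2-fold with p under 0.01 by the exact test of Audic and Claverie). Counted as distinct tags in place of reads (126, 191 and 203 tags), the log2 ratios were -0.58 and -0.017, and neither passed. Such a count is one of sequence variants and not of level, so it cannot decide the calls made by reads.

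The minor arms, or passenger strands, were counted in the same way. miR-143-5p held 4504, 1001 and 1782 reads, which in TPM was 281.5 (273.4 to 289.9) in anagen, 55.3 (51.9 to 58.8) in catagen and 66.0 (62.9 to 69.1) in telogen. The anagen level was 5.09-fold that of catagen (log2 ratio 2.35) and 4.27-fold that of telogen (log2 ratio 2.09), both past the call. Both calls were lost with tags of 21 nt or longer (log2 ratios of 0.11 and 0.77). Neither passed with distinct tags in place of reads (59, 52 and 55 tags, log2 ratios of 0.20 and 0.77), which again is not a count of level. miR-145-3p held 398, 680 and 890 reads, or 24.9 (22.5 to 27.4), 37.5 (34.8 to 40.5) and 32.9 (30.8 to 35.2) TPM. Its direction was that of miR-145-5p and its size smaller, with log2 ratios of -0.59 against catagen (p = 4.56e-11, Audic and Claverie exact test) and -0.41 against telogen (p = 2.58e-06, same test), neither past 2-fold.

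Over all tags and by reads, 2 of the 4 arms were called between anagen and catagen, miR-143-5p as higher and miR-145-5p as lower in anagen. Over all 281 counted arms with at least 1 TPM in either library, 27.8% were called, 4.98% as higher and 22.8% as lower in anagen. The same 2 arms were called between anagen and telogen, where 26.0% of 277 arms were called, 6.14% as higher and 19.9% as lower in anagen. Between catagen and telogen 0 of the 4 arms were called, against 14.9% of 281 arms, 8.54% as higher and 6.41% as lower in catagen, although 3 of the 4 arms differed at p under 0.01 and the fourth, miR-145-3p, had p = 0.0103 by the Audic and Claverie exact test. In both comparisons with anagen, a lower level in anagen was the more common call among the counted arms. This split depends on the scaling. With size factors from the median of ratios, 23 arms were called as higher and 33 as lower in anagen than in catagen, against 14 and 64 with clean reads. Against telogen 24 were higher and 45 lower in anagen, in place of 17 and 55, and between catagen and telogen 19 were higher and 22 lower in catagen, in place of 24 and 18.

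Each arm was also placed among the others by its ratio. The median log2 ratio of anagen to catagen was -0.37 over the 144 arms with at least 100 reads in each library, so that miR-143-3p lay 1.11 above it and miR-145-5p 1.54 below it. Of the other arms among these, 6 had a higher ratio than miR-143-3p and 5 a lower ratio than miR-145-5p. For miR-143-5p no other of these arms was higher between anagen and catagen, and 1 was higher between anagen and telogen. miR-145-3p lay in the middle, with 92 arms above it and 51 below it between anagen and catagen.

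**Figure D1:**
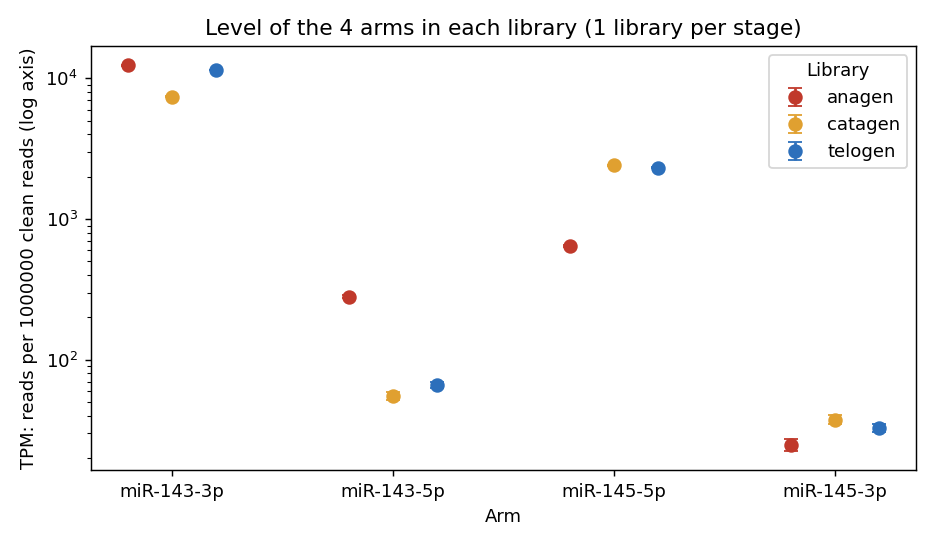
TPM, the reads per 1000000 clean reads (log axis), of each of the 4 arms in the anagen, catagen and telogen libraries, with bars for the 95% exact interval of counting, most of them smaller than the point. miR-143-3p was lowest in catagen at 7409, miR-145-5p was lowest in anagen at 644.8, and miR-143-5p was highest in anagen at 281.5.

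The ratio of the 2 guide arms needs no scaling between libraries, since both are counted in the same library. miR-143-3p outnumbered miR-145-5p by 19.2 (exact interval 18.8 to 19.6) in anagen, 3.06 (3.03 to 3.10) in catagen and 4.96 (4.92 to 5.004) in telogen. Anagen stood apart, and catagen was the lowest. The ratio was 6.26-fold larger in anagen than in catagen, a log2 difference of 2.65 (2.61 to 2.68). It was 3.86-fold larger in anagen than in telogen, a log2 difference of 1.95 (1.92 to 1.98), and 1.62-fold smaller in catagen than in telogen. Fisher's exact test gave p = 0 at the precision of the computation for each of the 3. Unlike the ratio, its split between the guides depends on the scaling. With clean reads miR-143-3p contributed 0.74 and miR-145-5p 1.91 to the log2 difference between anagen and catagen. With median of ratios size factors the 2 log2 ratios were 1.05 and -1.60. Between anagen and telogen most of the difference came from miR-145-5p. Its log2 ratio was -1.84 with clean reads, -1.69 with median of ratios and -2.15 with reads of all miRNA arms. That of miR-143-3p was 0.11, 0.26 and -0.20.

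The ratio of the minor arms was also largest in anagen. The ratio of miR-143-5p to miR-145-3p was 11.3 (10.2 to 12.6) in anagen, 1.47 (1.33 to 1.63) in catagen and 2.002 (1.85 to 2.17) in telogen. Its log2 difference was 2.94 (2.74 to 3.15) between anagen and catagen (p = 3.09e-184, Fisher's exact test) and 2.499 (2.31 to 2.69) between anagen and telogen (p = 1.14e-163, Fisher's exact test). With tags of 21 nt or longer the ratio was 1.92 (1.66 to 2.22), 1.05 (0.935 to 1.18) and 0.745 (0.666 to 0.833) in anagen, catagen and telogen, so that anagen stayed highest with a log2 difference from catagen of 0.87, and telogen was then the lowest.

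The order of the stages in the ratio of the guides held for each of the 8 choices of tags, while the ratio itself did not. With tags of exactly 21 nt, the main length of miR-143-3p, the log2 ratios of anagen, catagen and telogen were 6.67, 3.34 and 5.03. With tags of exactly 23 nt, the main length of miR-145-5p, they were -0.05, -2.07 and -1.78, so that miR-145-5p was then the more read of the 2 in each library. The log2 difference between anagen and catagen stayed at 3.33 and 2.02 under these choices.

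**Figure D2:**
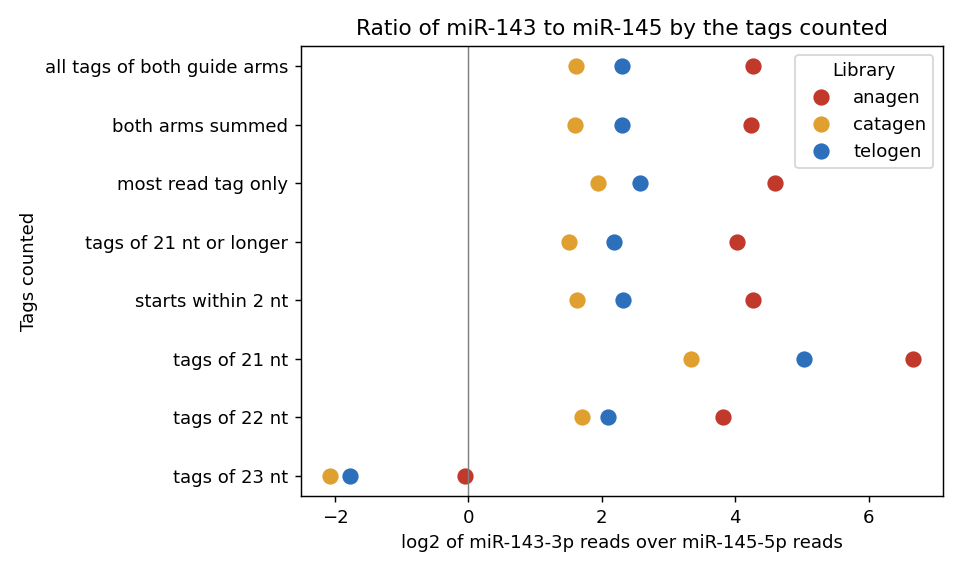
The log2 of miR-143-3p reads over miR-145-5p reads in each library (x axis) for 8 choices of the tags counted (y axis); in the line of both arms summed, the 5p and 3p reads of each precursor were added. With all tags the points of anagen, catagen and telogen lie at 4.26, 1.61 and 2.31, and in each line anagen is the rightmost and catagen the leftmost.

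Other neighbouring miRNA genes were compared in the same way, to see how far the ratio within a pair usually moved between these libraries. The gene table gave 22 pairs at most 10000 bases apart whose more read counted arms held at least 100 reads in each library. It has no strand column, and some pairs share a gene, so they are not independent. Some pairs hold a minor or shared arm, such as let-7d, of which the counted arm held 310, 142 and 517 reads, and let-7c, which was counted together with let-7a. The log2 ratio of miR-143 to miR-145 spanned 2.65 over the 3 libraries, against a median of 1.06 over the 21 other pairs, of which 11 spanned over 1. It ranked second of 22. The pair with a larger span was miR-144 and miR-451, miRNAs of red blood cells, at 2.86: miR-144 held 1662, 1384 and 194 reads and miR-451 held 13778, 22909 and 11649. miR-451 is known to be cut by Argonaute and not by Dicer. In the pair miR-133b and miR-206, both of skeletal muscle, the span was 0.33, although both levels moved by over 10-fold between anagen and catagen.

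**Figure D3:**
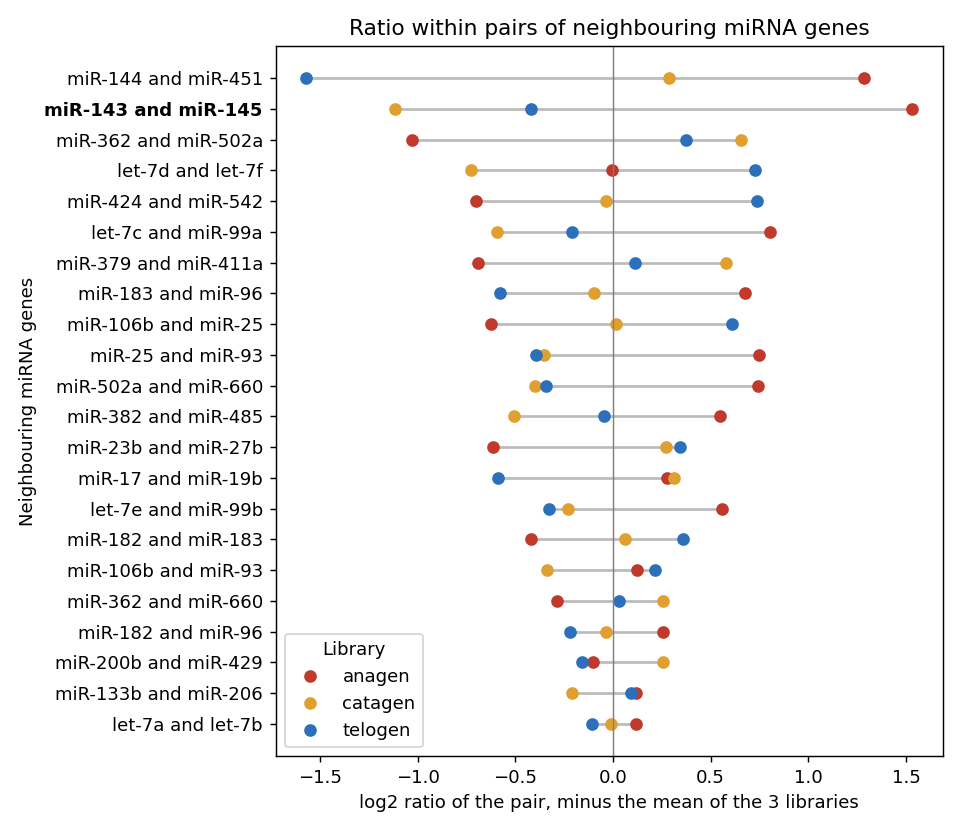
For each of 22 pairs of neighbouring miRNA genes (y axis), the log2 ratio of the pair in each library after subtracting its mean over the 3 libraries (x axis), with a grey line from the lowest to the highest. The pairs are ordered by their span, with miR-144 and miR-451 (2.86) and miR-143 and miR-145 (2.65) at the top.

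Counted over all tag lengths, the guide of each precursor outnumbered its partner least in anagen. miR-143-3p outnumbered miR-143-5p by 43.9 (42.6 to 45.2) in anagen, 134.1 (126.0 to 142.8) in catagen and 174.0 (166.1 to 182.4) in telogen. The log2 difference between anagen and telogen was -1.99 (-2.07 to -1.91). For miR-143 this order rested on short tags: with tags of 21 nt or longer the ratio was 272.9 (251.1 to 297.1), 211.1 (194.6 to 229.4) and 499.4 (459.3 to 543.9), with catagen lowest. miR-145-5p outnumbered miR-145-3p by 25.9 (23.4 to 28.7), 64.5 (59.7 to 69.6) and 70.2 (65.7 to 75.1), and with tags of 21 nt or longer by 32.3, 77.8 and 82.0, again least in anagen. Here anagen again was apart from telogen (log2 difference -1.44, p = 1.02e-51, Fisher's exact test), while the difference between catagen and telogen was within counting error (log2 difference -0.12, interval -0.27 to 0.02, p = 0.0999, Fisher's exact test). Of 11 other precursors whose listed tags joined to 2 sequences, each with 100 reads or more in each library, the log2 arm ratio spanned a median of 0.95 (range 0.28 to 2.71). It spanned 1.99 for miR-143, with 2 of the 11 above it (miR-33a at 2.71 and miR-2904 at 2.23), and 1.44 for miR-145, with 3 above it. With 4 more miRNAs whose tags joined to more than 2 sequences, taken by their 2 most read arms and added after the data were seen, 3 of 15 were above miR-143 and 4 above miR-145, miR-125b (2.59) among them.

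miR-143-5p differed by tag length. The arm came in a short form of 18 or 19 nt and a longer form of 22 to 24 nt. Tags of 18 to 20 nt held 3949 reads in the anagen library, against 420 in catagen and 1232 in telogen, which was 87.7% (Wilson interval 86.7 to 88.6), 42.0% (38.9 to 45.0) and 69.1% (67.0 to 71.2) of the arm. Tags of 21 nt or longer held 555, 581 and 550 reads, or 34.7, 32.1 and 20.4 TPM. For the short tags anagen was 10.6-fold above catagen (log2 ratio 3.41), whereas the longer tags had a log2 ratio of 0.11 (interval -0.06 to 0.28, p = 0.187, Audic and Claverie exact test). Against telogen the longer tags were 1.70-fold higher in anagen (log2 ratio 0.77), which is not past 2-fold. The higher level of miR-143-5p in anagen was thus carried by tags of 18 to 20 nt, and the call was lost without them. The 3 tags below show the 2 forms, with the seed in capitals.
short form of 19 nt: gGTGCAGTgctgcatctct
long form of 22 nt: gGTGCAGTgctgcatctctggt
long form of 23 nt: gGTGCAGTgctgcatctctggaa
The 19 nt tag held 3331, 339 and 1069 reads, the 22 nt tag 60, 74 and 43, and the 23 nt tag, whose last bases are not in the joined listed sequence, 35, 113 and 86. The 19 nt tag had its highest TPM in anagen and the others in catagen, while a further long tag of 21 nt, with 94, 30 and 51 reads, was also highest in anagen (5.88, 1.66 and 1.89 TPM).

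The other arms were also shorter in anagen. Tags of 18 to 20 nt made up 23.4%, 8.61% and 11.4% of miR-143-3p in anagen, catagen and telogen. For miR-145-5p these shares were 9.59%, 2.02% and 3.20%, and for miR-145-3p 27.4% (23.2 to 32.0), 18.8% (16.1 to 21.9) and 17.1% (14.7 to 19.7). This was not particular to the pair: the share was highest in anagen for 49 of 51 other arms with at least 1000 reads in each library and a most read tag of 21 nt or longer, with a median over 52 such arms of 5.94%, 1.42% and 2.58%. Of all clean reads, 10.6%, 7.58% and 6.29% were of 18 to 20 nt. The part of this difference between libraries in the miR-143-5p result was not tested. For the guides, tags of 18 to 20 nt were left out: the anagen to catagen log2 ratio was then 0.48 for miR-143-3p and -2.02 for miR-145-5p.

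**Figure D4:**
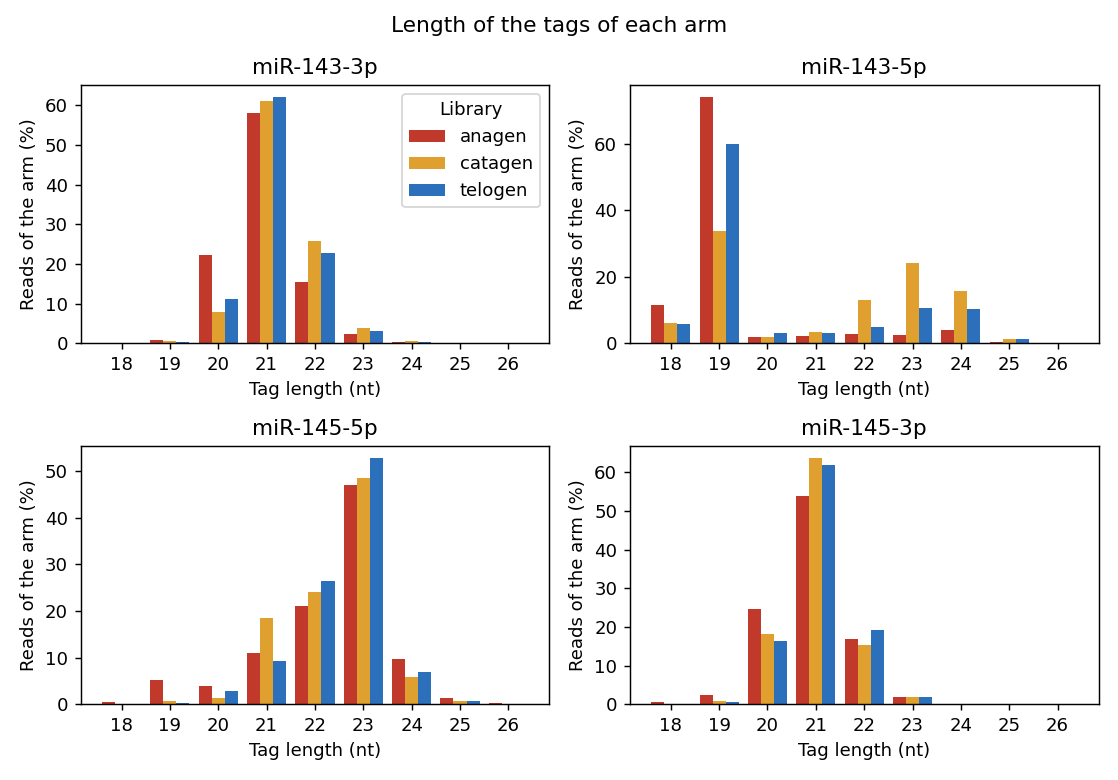
Share of the reads of each arm (y axis, %) by tag length (x axis, nt) in the 3 libraries, 1 panel per arm. miR-143-3p and miR-145-3p peaked at 21 nt and miR-145-5p at 23 nt in each library, and 20 nt tags of miR-143-3p were at 22.3% in anagen against 8.005% in catagen; miR-143-5p had a peak at 19 nt and a lower one at 22 to 24 nt.

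The 3 prime end of miR-143-3p had 3 main forms. They are printed because they hold most reads of the most abundant arm, with the seed in capitals.
ending as the most read tag: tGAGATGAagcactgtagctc
1 base shorter: tGAGATGAagcactgtagct
with T added: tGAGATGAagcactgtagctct
The most read tag made up 54.4%, 57.2% and 59.3% of the arm in anagen, catagen and telogen. The tag that is 1 base shorter made up 21.6%, 7.22% and 10.6%, and the tag with the added T 12.3%, 21.3% and 18.6%. Anagen therefore had the most shortened and the fewest extended tags. An end base that is not in the sequence joined from the listed tags was found in 17.8%, 27.2% and 23.6% of the reads, and it was T in 75.3%, 82.8% and 83.3% of these and A in 23.4%, 16.0% and 15.4%. The share of the arm with 1 added T was 13.4%, 22.6% and 19.6%, against medians of 2.59%, 2.93% and 3.06% over 51 other arms, of which 25 were lowest in anagen. No genome was at hand, and a base called added is one that is absent from the joined sequence.

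miR-145-5p was more evenly spread over its ends. The 23 nt tag made up 43.3%, 45.5% and 49.4% of the arm in anagen, catagen and telogen. The 22 nt tag made up 18.6%, 21.6% and 24.4%, and the 21 nt tag 7.48%, 14.7% and 7.55%, so that the 21 nt tag was most frequent in catagen. The 24 nt tag, which ends in T after the most read tag, made up 8.51%, 5.04% and 6.02%. Past base 23 no listed sequence covers this arm, and an added base cannot be told apart from the precursor there.
most read miR-145-5p tag: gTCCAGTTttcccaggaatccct
1 base shorter: gTCCAGTTttcccaggaatccc
2 bases shorter: gTCCAGTTttcccaggaatcc
with T at the end: gTCCAGTTttcccaggaatccctt
In miR-145-3p the most read 21 nt tag made up 43.2% (38.4 to 48.1) in anagen, 55.3% (51.5 to 59.0) in catagen and 52.7% (49.4 to 56.0) in telogen, and the tag 1 base shorter 23.9%, 17.8% and 16.2%.

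The 5 prime start, which sets the seed, was nearly fixed. Among tags that start up to 3 nt before or after the usual base, the usual start held 99.2%, 98.7% and 99.2% of miR-143-3p and 99.4%, 99.6% and 99.6% of miR-145-5p. For miR-143-5p it held 99.9%, 100% and 99.8%, and for miR-145-3p 93.0% (90.2 to 95.05), 93.5% (91.5 to 95.1) and 92.1% (90.3 to 93.7). The most read shifted tags of miR-143-3p are shown with the seed that each would have.
1 nt early: cTGAGATGaagcactgtagctc
1 nt late: gAGATGAAgcactgtagctc
2 nt late: aGATGAAGcactgtagctcggt
3 nt late: gATGAAGCactgtagctcggt
Starts 1 nt early held 599, 675 and 1192 reads, which was 0.300%, 0.496% and 0.381%. Starts 2 nt early held 255, 267 and 381 reads. Starts 2 nt late held 389, 520 and 545 reads (0.195%, 0.382% and 0.174%), and starts 3 nt late 173, 243 and 224. These late tags ran on past the end of the usual tag. Starts 1 nt late held 223, 68 and 10 reads, or 0.112% (0.098 to 0.128), 0.050% (0.039 to 0.063) and 0.003% (0.002 to 0.006). In 18 of 23 other arms with at least 10000 reads in each library this share was also highest in anagen, with medians of 0.184%, 0.119% and 0.043%. The starts of miR-143-3p in the listed tags used here, 2 nt early and 3 nt late, held 426, 508 and 592 reads when summed over the tags that share the first 18 nt of a listed tag (the reads given above for 2 nt early also include tags with other bases before the usual start), and from these alone the anagen to catagen log2 ratio was -0.075, against 0.74 for the usual start.

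Single base changes within the first 18 nt were counted against the usual sequence, with positions counted from 1 at the 5 prime end. They held 3.34%, 1.41% and 1.54% as many reads as miR-143-3p itself in anagen, catagen and telogen. For miR-145-5p these values were 3.02%, 1.44% and 1.64%. In anagen the most frequent change of miR-143-3p was A8C, in its seed, which had 2403 reads in the anagen library, against 6 in catagen and 24 in telogen, or 1.22%, 0.004% and 0.008% of the arm. In the 8 other arms with A at base 8 and at least 2000 reads in each library, A8C held 0.591% to 1.20% in anagen and at most 0.021% in catagen and 0.005% in telogen. A8C of the anagen library was thus seen in every such arm. In catagen the most frequent change of miR-143-3p was G18A, with 222 reads, and in telogen A5G, with 552. G18A held 0.184%, 0.165% and 0.082% of the arm in anagen, catagen and telogen. In 9 other arms with G at base 18 it was at most 0.078%, 0.058% and 0.043%.

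A5G was highest in telogen in both guides. It held 0.178% of miR-143-3p and 0.162% of miR-145-5p in telogen, against 0.046% and 0.029% in anagen and 0.012% and 0.011% in catagen, and 0.123% to 0.206% in telogen in 8 other arms. In miR-145-5p the most frequent change in each library was C11T, with 61, 134 and 171 reads, or 0.591%, 0.306% and 0.274% of the arm. In 10 other arms with C at base 11 it was at most 0.239%, 0.179% and 0.092%, so that C11T of miR-145-5p lay above them in all 3 libraries. This was not particular to C11T, since G18A of miR-143-3p also lay above its other arms in all 3. So did A18T of miR-145-5p, at 0.194%, 0.082% and 0.067% against at most 0.102%, 0.046% and 0.060% in 6 other arms. C11T in miR-143-3p held 0.132%, 0.148% and 0.114%. Counting tags with 1 mismatch changed no call of the 4 arms.

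miRNAs of other cell types moved between the libraries too, and their part in the results above was not tested. Of 6 skeletal and heart muscle miRNAs, 4 were counted (miR-1, miR-133a, miR-133b and miR-206), and all 4 were lower in anagen than in catagen and in telogen, and higher in catagen than in telogen. Over all arms tested 22.8% were lower in anagen than in catagen, 19.9% lower in anagen than in telogen and 8.54% higher in catagen than in telogen. The sum of the 4 muscle miRNAs was 4110, 78727 and 21392 TPM in anagen, catagen and telogen, none was at 0, and they took up 7.87% of the catagen reads. miR-145-5p was likewise lower in anagen, and miR-143-3p was not. With the muscle reads taken out of the library size the anagen to catagen log2 ratio was 0.63 for miR-143-3p and -2.02 for miR-145-5p, a scaling chosen after the data were seen.

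The remaining lists are given in the same way. miR-126 of endothelium, which lines the vessels that smooth muscle surrounds, was at 38.8, 31.7 and 36.9 TPM and was called in no pair. This is the level of its 1 counted arm, and whether it is the guide arm was not tested. The same holds for the epithelial miR-200a, miR-200b and miR-200c. Of 3 red blood cell miRNAs, 1 was lower in anagen than in catagen (miR-486), 1 was higher in anagen than in telogen (miR-144), and 2 were higher in catagen than in telogen (miR-144 and miR-451), with sums of 1298, 2118 and 875.2 TPM. Over all arms these calls were made for 22.8%, 6.14% and 8.54%, and 3 members are too few to set against them. Of 7 epithelial miRNAs 6 were counted and 5 tested, and 1 was called, miR-200a at 21, 19 and 12 reads, as higher in anagen than in telogen, a call made for 6.14% of all arms. It was tested there only through anagen, where it was high (1.31 against 0.444 TPM), so that this call carries no weight. Of 3 fibroblast miRNAs 2 were counted, and neither was called in any pair, where 27.8%, 26.0% and 14.9% of all arms were called. Their sums of 10158, 18216 and 14136 TPM were nearly all miR-199a, since the counted arm of miR-214 held 10, 23 and 41 reads and may not be its guide.

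The list of miRNAs studied in the growth and differentiation of smooth muscle had 12 members, all of them counted, of which 11 reached 1 TPM and were tested (all but miR-222). Between anagen and catagen 2 were lower in anagen, miR-31 and miR-125b, and 0 were higher. This was 18.2% of those tested, against 22.8% of all arms called as lower in anagen. Those tested include miR-195, which reached 1 TPM only in catagen, where it was higher (0.313 against 1.05 TPM), and was not called. Against telogen miR-31 and miR-125b were lower in anagen too, a call made for 19.9% of all arms. miR-195 also passed the call there (0.313 against 1.26 TPM), but it was tested only because telogen, where it was high, reached 1 TPM, and it is left out of the count. With miR-195 included, the share called as lower in anagen than in telogen was 27.3% of those tested. Between catagen and telogen 0 of those tested were called, against 14.9% of all arms. miR-125b held 7965, 25103 and 44352 reads, or 497.9, 1386 and 1642 TPM. miR-31 was at 7.88, 16.3 and 26.8 TPM, lowest in anagen, whereas the study's background describes miR-31 as rising in anagen and falling in catagen and telogen. miR-21, an abundant member that is induced when smooth muscle is injured, was at 2324, 3672 and 2725 TPM, and miR-221, which favours growth over contraction, at 326.1, 269.5 and 223.6, and neither was called. For miR-222, miR-24, miR-29a and miR-195 the counted arm held under 100 reads in each library, and whether it is the guide arm was not tested. For miR-31 too only 1 arm was counted (126, 296 and 723 reads), and whether it is the guide was not tested.

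Likeness was measured as the distance between log2 profiles over the 3 libraries, each centred on its mean, among 57 other arms with at least 1000 reads in each library. The arms nearest to miR-145-5p were miR-125b (distance 0.31), miR-100 (0.66) and miR-205 (0.82), each with its lowest level in anagen. miR-100 stood at 107.8, 286.4 and 202.1 TPM, and miR-205, of epithelium, at 990.4, 1790 and 1863. The arms nearest to miR-143-3p were miR-374b (0.17), miR-28 (0.45) and let-7b (0.46). miR-374b stood at 129.5, 86.5 and 142.3 TPM, with catagen lowest as in miR-143-3p. Over 3 libraries such a distance is a description, and neither guide had the other among its nearest arms.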

How the data were processed

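Small RNA of 18 to 30 nt was sequenced in 1 library per stage. The deposited files hold counts of reads per distinct tag after the authors had removed adapters, low quality reads and tags under 18 nt; no alignment enters these counts. Arms were counted as tags that share their first 18 nt with the most read tag inside the sequence joined from the listed tags of a miRNA (overlap of at least 14 bases), which gave 457 arms of 312 miRNAs. The copy of the list used here was shortened. Taking the arm start from the joined sequence, and finding miR-145-5p by pairing with RNAduplex (ViennaRNA 2.7.2), were choices made after the files were seen. miR-145-5p is not among the arms counted as background. Counts were scaled to TPM, reads per 1000000 clean reads, as in the study. Ratios were tested with the exact test of Audic and Claverie (two-sided), ratios of arms with Fisher's exact test (two-sided), and intervals are 95% exact (Clopper-Pearson), Wilson for shares within an arm, and a normal approximation on the log scale for differences of ratios (Python 3.11.15, SciPy 1.17.1). p-values are unadjusted, as in the study. A call needs over 2-fold and p under 0.01. Steps were tested on simulated data. A count of 0 allows up to 3 reads, or 0.188, 0.166 and 0.111 TPM in anagen, catagen and telogen. The text names each arm of the pair, its most read tags (5 per arm considered), the 3 nearest arms, neighbouring pairs that moved at least as far and members of the marker lists; miR-133b with miR-206, the base changes, miR-33a and miR-2904 were named after their values were seen. The members and lists were chosen with earlier results of these data known.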

Additional observations from a re-analysis of the deposited data

How the results depend on the processing

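No paired analysis was possible because each stage has 1 library, and for the same reason no library could be left out. The log2 difference of the miR-143 to miR-145 ratio kept its direction and a p under 0.01 by Fisher's exact test for each pair of stages under all 7 choices of tags. Its size did not: the 2.65, 1.95 and -0.70 of anagen to catagen, anagen to telogen and catagen to telogen became 3.33, 1.64 and -1.70 with tags of 21 nt. The log2 ratio itself in anagen, catagen and telogen was 4.59, 1.95 and 2.57 with the most read tags only, 4.02, 1.51 and 2.18 with tags of 21 nt or longer, 6.67, 3.34 and 5.03 with tags of 21 nt, 3.82, 1.71 and 2.09 with tags of 22 nt, and -0.050, -2.07 and -1.78 with tags of 23 nt. miR-143-3p passed 2-fold between anagen and catagen with median of ratios size factors (log2 ratio 1.05). For miR-143-5p the calls were lost with tags of 21 nt or longer (0.11 against catagen and 0.77 against telogen). The most read tag of miR-143-5p alone passed between catagen and telogen (-1.08). With distinct tags in place of reads neither miR-143-5p (0.20 and 0.77) nor miR-145-5p (-0.58 against catagen and -0.017 against telogen) was called, and the cause was not tested. A number of distinct tags counts sequence variants and not level, so it cannot decide the calls made by reads. Other signs turned where no 2-fold call stood. Scaled to the reads of all miRNA arms, the log2 ratio was -0.20 for miR-143-3p between anagen and telogen, and -0.23 for miR-145-5p and -0.11 for miR-145-3p between catagen and telogen. With median of ratios size factors miR-145-5p was at -0.094 between catagen and telogen. With the most read tag only, miR-143-3p was at -0.015 between anagen and telogen and miR-145-5p at -0.055 between catagen and telogen. With tags of 21 nt or longer, miR-143-3p was at -0.10 between anagen and telogen and miR-143-5p at 0.66 between catagen and telogen. With the listed starts only, miR-143-3p was at -0.075 between anagen and catagen and 0.36 between catagen and telogen. With distinct tags, miR-143-5p was at 0.57 between catagen and telogen, and miR-145-3p at 0.076 against catagen and 0.56 against telogen. Chosen after the data were seen, tags of 21 nt or longer gave log2 ratios in anagen, catagen and telogen of 0.94, 0.074 and -0.42 for miR-143-5p to miR-145-3p (catagen to telogen difference 0.50, turned), 8.09, 7.72 and 8.96 for miR-143-3p to miR-143-5p (anagen to catagen difference 0.37, turned), and 5.01, 6.28 and 6.36 for miR-145-5p to miR-145-3p. The number of arms called between anagen and catagen, anagen and telogen, and catagen and telogen was 78, 72 and 42; it was 27, 19 and 18 with at least 100 reads in both libraries, where fewer arms were tested, and 124, 116 and 68 with a 1.5-fold limit. Shares of end classes moved beyond their interval for 44 of 45 values when each tag was counted once, and for none of the 45 with tags of 10 or more reads. miR-145-3p rests on 398 to 890 reads, which limits its shares.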
